A study of Mus musculus with 12 samples.

Results

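The expression of 10 genes of the YAP/TAZ-TEAD module of Hippo signaling was examined in U2OS cells, an established human osteosarcoma line. They were the coactivators YAP1 and WWTR1 (the gene of TAZ), the transcription factors TEAD1 and TEAD4, the inhibitors LATS2 and AMOTL2, the LIM protein AJUBA, and the target genes CCN1, CCN2 and ANKRD1. The genes were found by full name among the 58735 genes of the table, where CCN1 and CCN2 carried their older names, and all 10 were matched and passed the filter on low values. They were chosen by name with FPKM and fold changes of these 12 libraries already known, so their differences describe these libraries and are not independent evidence. The study asked what changes in gene expression when SRSF1, a serine/arginine-rich splicing factor, is knocked down. It had 4 groups of 3 libraries. They were U2OS cells labeled blank, cells given the siRNA siSRSF1-2, cells given the siRNA siSRSF1-3, and cells with overexpression of LINC01134, a long non-coding RNA (OE-LINC01134). No library was labeled as cells with a control siRNA or an empty vector, and the labels do not say how the blank cells were handled. The effect of the transfection and that of the siRNA or the transcript therefore cannot be told apart. The labels give neither dose nor time, and they do not say whether replicates came from separate cultures, so p-values measure only the spread between these libraries, which may be technical.

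In the Hippo pathway, a kinase cascade ends in LATS kinases, which phosphorylate YAP and TAZ and so keep them in the cytoplasm or send them to degradation. Unphosphorylated YAP and TAZ enter the nucleus, bind TEAD factors on DNA and switch on genes such as CCN1, CCN2 and ANKRD1. LATS2 and AMOTL2 are themselves targets of YAP and TAZ, and act back on them as inhibitors. RNA levels do not show the phosphorylation or the location of YAP and TAZ.

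Levels are given in FPKM, which counts fragments for each kilobase of a gene after scaling by library size, so that levels of different genes are set side by side per length. A library had 26237763 to 32954539 reads on genes, and a member had between 246 reads (WWTR1) and 31185 reads (ANKRD1) in a library. SRSF1 had 35.9, 19.8 and 20.5 FPKM in the blank libraries, 7.09 to 7.46 FPKM with siSRSF1-2, 3.33 to 7.90 FPKM with siSRSF1-3 and 29.6 to 31.8 FPKM with OE-LINC01134, and LINC01134 was at 878 FPKM or more in the 3 OE-LINC01134 libraries and at 1.11 FPKM or less in the others. Of the markers, 6 mesenchymal genes summed to 342 to 460 FPKM in the blank libraries, 187 to 192 FPKM with siSRSF1-2, 171 to 258 FPKM with siSRSF1-3 and 171 to 400 FPKM with OE-LINC01134, although COL1A2 among them was at 0.0131 FPKM or less. Both siRNA groups thus lay wholly below the blank libraries for this sum, as they did for CCN1, CCN2 and WWTR1. Not every marker followed the sum. With siSRSF1-3, RUNX2 was at 2.65 to 3.92 FPKM against 3.35 to 3.71 FPKM in the blank libraries. VIM reached 183 FPKM with siSRSF1-3, where the lowest blank value was 181 FPKM. COL1A1, SPARC and FN1 were wholly below the blank libraries with both siRNAs. The 4 epithelial genes summed to 1.70 to 3.24 FPKM, with the siSRSF1-3 libraries highest, the 3 endothelial genes to 0.247 to 0.662 FPKM and the 4 blood genes to 0.147 FPKM or less. The part of these markers in any difference was not tested.

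The replicates were not alike in every group. Counting noise alone gives a mean chi-square per gene of about 1 between libraries, and the value was 2.75 between blank replicates 2 and 3, 2.13 between OE-LINC01134 replicates 1 and 3, and 2.60 to 3.20 among the siSRSF1-2 libraries. Blank replicate 1 stood at 63.2 and 66.4 from the other blank libraries, and OE-LINC01134 replicate 2 at 66.5 and 68.6 from its own group. These libraries were nearer to each other, at 44.9. The siSRSF1-3 libraries stood between 92.8 and 316 from each other, and replicate 3 of that group was nearer to the siSRSF1-2 libraries, at 29.99 to 39.8.

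**Figure D1:**
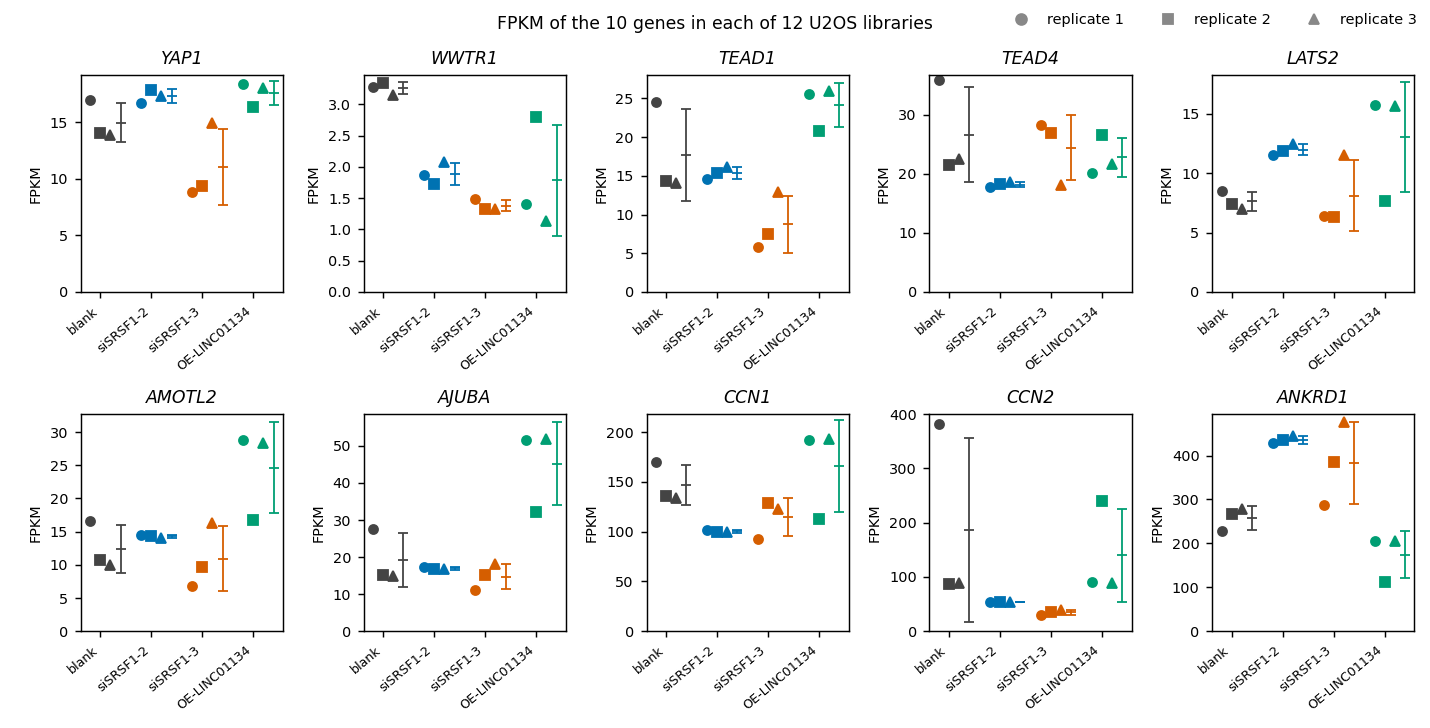
FPKM (y axis, linear from 0, a scale of its own in each panel) of the 10 genes in the 12 libraries, by group (x axis), with a marker shape for each replicate and the mean and SD (n = 3) beside the points. WWTR1 was highest in the blank libraries, AJUBA and AMOTL2 in the OE-LINC01134 libraries, and CCN2 in blank replicate 1 and OE-LINC01134 replicate 2.

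WWTR1, the gene of TAZ, had a lower level in every treated library than in any blank library, and with all libraries it passed the threshold in siSRSF1-3 alone. Among the targets, all siRNA libraries lay below all blank libraries for CCN1 and CCN2 and above them for ANKRD1, and none of these differences passed the threshold. In OE-LINC01134 cells AJUBA and AMOTL2 were higher in every library than in any blank library, and neither passed the threshold with all libraries. Group pairs were fitted with limma as log2(FPKM + 0.1), and the 17538 genes whose mean reached 0.5 FPKM were tested. Passing the threshold took a p under 0.05 after Benjamini-Hochberg adjustment together with a log2 fold change beyond 1 in either direction. In bulk RNA, fewer cells of a kind and less RNA per cell cannot be told apart.

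With siSRSF1-2, 0 of the 10 genes passed the limma threshold, beside 4.95% of all genes tested, and 1 (CCN2, lower) had an unadjusted p under 0.05 with a log2 fold change beyond 1, beside 3.43% of all genes in that direction. At any fold change, 4 genes had an adjusted p under 0.05, ANKRD1 and LATS2 higher and WWTR1 and CCN1 lower, beside 14% of all genes higher and 12.8% lower. The siSRSF1-2 libraries differed by little more than counting noise, so these p-values set the differences against little more than that noise on the siSRSF1-2 side. With siSRSF1-3, 1 gene passed the threshold, WWTR1, which fell, beside 1.26% of all genes in either direction and 0.929% lower, and 3 (WWTR1, TEAD1 and CCN2, all lower) did so at an unadjusted p, beside 7.24% lower. With OE-LINC01134, 0 genes passed by limma, beside 0.85% of all genes, and 1 (AJUBA, higher) did so at an unadjusted p, beside 2.45% higher. Between siSRSF1-3 and siSRSF1-2, 0 genes passed by limma, beside 0.0855% of all genes, and 0 did so at an unadjusted p, beside 16.4%. The median log2 fold change of the 10 genes was -0.14 with siSRSF1-2, -0.35 with siSRSF1-3 and 0.19 with OE-LINC01134 against blank, where that of all genes tested was 0.02, -0.01 and 0.05. For siSRSF1-3 against siSRSF1-2 the medians were -0.45 and -0.02. Without blank replicate 1, the median of the 10 genes against blank was 0.14 with siSRSF1-2, -0.15 with siSRSF1-3 and 0.41 with OE-LINC01134.

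The ranges of the groups gave a second description. With siSRSF1-2, 2 of the genes lay wholly above and 4 wholly below the blank libraries, beside 25.3% and 24.2% of all genes. For siSRSF1-3 these numbers were 1 and 4, beside 19.2% and 18%, and for OE-LINC01134 they were 2 and 2, beside 16.8% and 13.8%. Between the siRNAs, 0 genes were wholly higher and 4 wholly lower with siSRSF1-3, beside 27% and 27.6%. The smallest p that an exact two-sided permutation test allows with 3 libraries a group is 0.1, the value of every gene whose groups did not overlap. The 3 comparisons against blank share the same blank libraries, so their values stand side by side here and are not independent of each other.

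**Figure D2:**
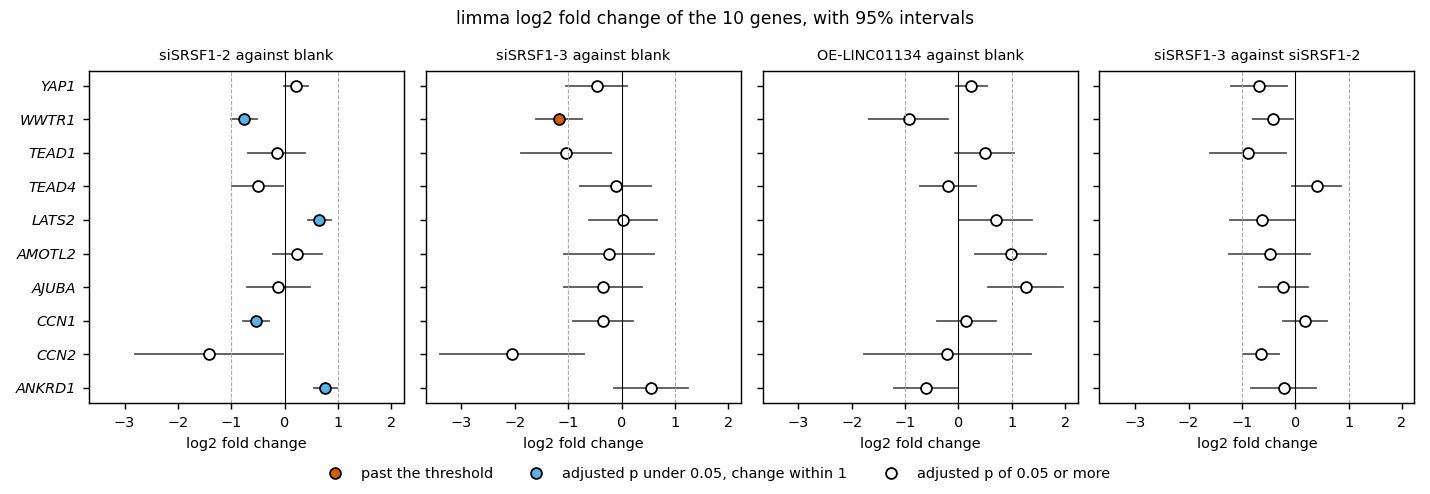
Log2 fold change (x axis) of the 10 genes (y axis) in the 4 comparisons, with 95% intervals from limma as lines, dashed lines at a change of 1 in either direction, and the fill of the points showing which passed the threshold or an adjusted p alone. WWTR1 with siSRSF1-3, at -1.18, passed the threshold, and the interval of CCN2 was wide in each comparison with blank.

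WWTR1 encodes TAZ, the paralog of YAP. Its FPKM was 3.28, 3.34 and 3.15 in the blank libraries, 1.87, 1.73 and 2.07 with siSRSF1-2, 1.49, 1.33 and 1.32 with siSRSF1-3, and 1.41, 2.80 and 1.14 with OE-LINC01134. Every treated library lay below every blank library, and every siSRSF1-3 library below every siSRSF1-2 library. The group means were 3.26 ± 0.0981, 1.89 ± 0.173, 1.38 ± 0.0947 and 1.78 ± 0.893 FPKM in the same order (SD, n = 3). With siSRSF1-3, WWTR1 fell by 1.18 on the log2 scale (SE 0.182, limma adjusted p = 0.0453), a fold of 0.441. The call was close to the threshold, with an adjusted p between 0.0117 and 0.219 and a log2 fold change between -1.59 and -0.84 over the alternatives. By limma it was lost under 11 alternatives, among them when any of the 3 blank libraries or siSRSF1-3 replicate 1 or 2 was left out (adjusted p = 0.0888, 0.196, 0.198, 0.0801 and 0.219), when FPKM were scaled by each library's own reads (0.0553), or rescaled to the same sum (0.0845), with near-identical libraries averaged (0.198), with the trend over gene length removed (-0.97, adjusted p = 0.0561), and at a pseudocount of 1, where the log2 fold change was -0.84. With siSRSF1-2 the log2 fold change was -0.76 (SE 0.0996, limma adjusted p = 0.00468). The value for siSRSF1-3 against siSRSF1-2 was -0.42 (SE 0.153, limma adjusted p = 0.0999).

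In OE-LINC01134 cells the WWTR1 level of replicate 2 was 2.20 times the mean of the other two. Against blank, the log2 fold change was -0.93 (SE 0.314, limma adjusted p = 0.132) with all libraries and -1.30 (limma adjusted p = 0.00736) without that replicate. Over the alternatives it lay between -1.30 and -0.66, with adjusted p between 0.00196 and 0.744. WWTR1 was the member with the lowest level, and genes that overlap it held at most 31 reads in a library.

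YAP1, the other coactivator, had 16.9, 14.1 and 13.9 FPKM in the blank libraries, 16.7, 17.9 and 17.3 with siSRSF1-2, 8.86, 9.40 and 14.9 with siSRSF1-3, and 18.4, 16.4 and 18.0 with OE-LINC01134. The siSRSF1-3 libraries were wholly below the siSRSF1-2 and the OE-LINC01134 libraries, and replicate 3 among them overlapped the blank range. Against blank, the log2 fold change of YAP1 was 0.21 (SE 0.0936, limma adjusted p = 0.144) with siSRSF1-2, -0.47 (SE 0.242, adjusted p = 0.232) with siSRSF1-3 and 0.24 (SE 0.122, adjusted p = 0.262) with OE-LINC01134. None of these passed the threshold. With siSRSF1-3 the value was -0.70 (limma adjusted p = 0.0228) without replicate 3 of that group, and it lay between -0.91 and -0.33 over the alternatives, with adjusted p between 0.0228 and 0.485. Between the siRNAs it was -0.68 (SE 0.214, limma adjusted p = 0.0873) with all libraries and -0.91 (adjusted p = 0.00143) without siSRSF1-3 replicate 3, and it lay between -1.25 and -0.53 over the alternatives, with adjusted p between 0.00143 and 0.639. Without that replicate, 4184 of all genes tested passed the threshold against blank and 5358 between the siRNAs, beside 221 and 15 with all libraries. In the siSRSF1-3 libraries left, the library size implied by FPKM was 0.712 and 0.888 times their own reads. The median over all genes tested between the siRNAs moved, on the log2 scale, from -0.02 to -0.31 when FPKM were scaled by each library's own reads and to -0.57 when they were rescaled to the same sum. Against blank, the median for siSRSF1-3 moved from -0.01 to -0.26 and -0.43, and the rescaling to the same sum moved that for siSRSF1-2 from 0.02 to 0.15.

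TEAD1 and TEAD4 bind DNA for YAP and TAZ. TEAD1 had 24.6, 14.4 and 14.1 FPKM in the blank libraries, 14.6, 15.4 and 16.1 with siSRSF1-2, 5.80, 7.50 and 12.9 with siSRSF1-3, and 25.6, 20.8 and 25.9 with OE-LINC01134. Every siSRSF1-3 library lay below every library of the other groups, and blank replicate 1 lay within the OE-LINC01134 range. Against blank, the log2 fold change of TEAD1 with siSRSF1-3 was -1.04 (SE 0.355, limma adjusted p = 0.126), between -1.48 and -0.78 over the alternatives, with adjusted p between 0.0219 and 0.326. In siSRSF1-3 replicate 3 the TEAD1 level was 1.94 times the mean of the other two. Without that library the log2 fold change was -1.36 (limma adjusted p = 0.0219) against blank and -1.21 (adjusted p = 0.00226) against siSRSF1-2, where it was -0.89 (adjusted p = 0.0894) with all libraries. The same fits passed 4184 and 5358 of all genes tested, beside 221 and 15 with all libraries. TEAD1 differed from blank by 0.49 on the log2 scale (SE 0.234, limma adjusted p = 0.234) with OE-LINC01134 and by -0.15 (SE 0.221, adjusted p = 0.642) with siSRSF1-2, and the latter turned to 0.11 without blank replicate 1. With OE-LINC01134 the value was 0.75 (limma adjusted p = 0.0237) without blank replicate 1, and it lay between 0.31 and 0.85 over the alternatives, with adjusted p between 0.000237 and 0.854.

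TEAD4 had 35.9, 21.4 and 22.5 FPKM in the blank libraries, 17.7, 18.2 and 18.5 with siSRSF1-2, 28.2, 26.9 and 18.2 with siSRSF1-3, and 20.2, 26.5 and 21.7 with OE-LINC01134. The siSRSF1-2 libraries were wholly below the blank and the OE-LINC01134 libraries, and the other groups overlapped. Unlike TEAD1, TEAD4 was lower in siSRSF1-3 replicate 3 than in replicates 1 and 2 of that group, at 0.659 times their mean. Against blank, TEAD4 had a log2 fold change of -0.51 (SE 0.198, limma adjusted p = 0.110) with siSRSF1-2, -0.11 (SE 0.280, adjusted p = 0.806) with siSRSF1-3 and -0.19 (SE 0.221, adjusted p = 0.607) with OE-LINC01134. Without blank replicate 1 the first was -0.27 and the last 2 turned to 0.13 and 0.05. The gene lengths in the table were 10279 bases for TEAD1 and 2272 bases for TEAD4. In siSRSF1-3 against blank, the median log2 fold change was -0.21 over the longest genes, of 6414 bases or more, which include TEAD1 and WWTR1, and 0.21 over genes of 1481 to 3701 bases, which include TEAD4 and all 3 target genes among the members, and the part of length in these differences was not tested.

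AJUBA, a LIM protein that binds LATS kinases and restrains them, and AMOTL2, an angiomotin that holds YAP at cell junctions, had their highest levels with OE-LINC01134. AJUBA had 27.5, 15.2 and 14.9 FPKM in the blank libraries, 17.3, 16.8 and 16.7 with siSRSF1-2, 11.1, 15.1 and 18.1 with siSRSF1-3, and 51.5, 32.2 and 51.8 with OE-LINC01134. All 3 OE-LINC01134 libraries lay above the other 9 libraries, and OE-LINC01134 replicate 2 was the nearest to them, next to blank replicate 1. The log2 fold change against blank was 1.26 (SE 0.295, limma adjusted p = 0.0769), a fold of 2.39, and it reached at most 1.78 over the alternatives, with adjusted p between 0.000128 and 0.678. It did not pass the threshold with all 6 libraries, and passed it without blank replicate 1 (1.55, adjusted p = 0.0211), without OE-LINC01134 replicate 2 (1.49, adjusted p = 0.0243) and without both (1.78, adjusted p = 0.000128). The last fit rests on 2 near-identical libraries a group, so its spread is little more than counting noise. Each of the other fits leaves 2 near-identical libraries in 1 of the groups, for AJUBA as for the other members. With the siRNAs, AJUBA overlapped the blank range, with log2 fold changes of -0.12 (SE 0.240, limma adjusted p = 0.748) for siSRSF1-2 and -0.34 (SE 0.307, adjusted p = 0.462) for siSRSF1-3.

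AMOTL2 had 16.6, 10.7 and 9.98 FPKM in the blank libraries, 14.5, 14.4 and 14.03 with siSRSF1-2, 6.78, 9.68 and 16.4 with siSRSF1-3, and 28.8, 16.8 and 28.4 with OE-LINC01134. OE-LINC01134 replicate 2 and blank replicate 1 were almost level, and the other OE-LINC01134 libraries were far above all others. AMOTL2 had a log2 fold change against blank of 0.98 (SE 0.277, limma adjusted p = 0.101) with OE-LINC01134, 1.20 (adjusted p = 0.0451) without blank replicate 1, 1.23 (adjusted p = 0.0223) without OE-LINC01134 replicate 2 and 1.46 (adjusted p = 0.000207) without both. Over the alternatives it lay between 0.74 and 1.46, with adjusted p between 0.000207 and 0.723. It was 0.24 (SE 0.191, limma adjusted p = 0.396) with siSRSF1-2 and -0.24 (SE 0.358, adjusted p = 0.663) with siSRSF1-3, whose replicate 3 had 1.99 times the mean AMOTL2 level of the other two.

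LATS2, a kinase that phosphorylates YAP and TAZ, had 8.51, 7.37 and 7.03 FPKM in the blank libraries, 11.6, 11.9 and 12.5 with siSRSF1-2, 6.39, 6.34 and 11.6 with siSRSF1-3, and 15.8, 7.69 and 15.7 with OE-LINC01134. The siSRSF1-2 libraries were wholly above the blank libraries, and in the siSRSF1-3 and OE-LINC01134 groups 1 library stood apart from the other two. With siSRSF1-2 the log2 fold change of LATS2 was 0.65 (SE 0.0906, limma adjusted p = 0.00557), between 0.59 and 0.78 over the alternatives, with adjusted p between 0.000195 and 0.820. With OE-LINC01134 it was 0.70 (SE 0.286, limma adjusted p = 0.183), and 1.04 (adjusted p = 0.00752) without replicate 2, whose level was 0.489 times the mean of the other two. With siSRSF1-3 it was 0.03 (SE 0.269, limma adjusted p = 0.947) against blank and -0.62 (SE 0.250, adjusted p = 0.116) against siSRSF1-2. The first of these turned to -0.23 with FPKM scaled by each library's own reads and to -0.25 without siSRSF1-3 replicate 3.

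**Figure D3:**
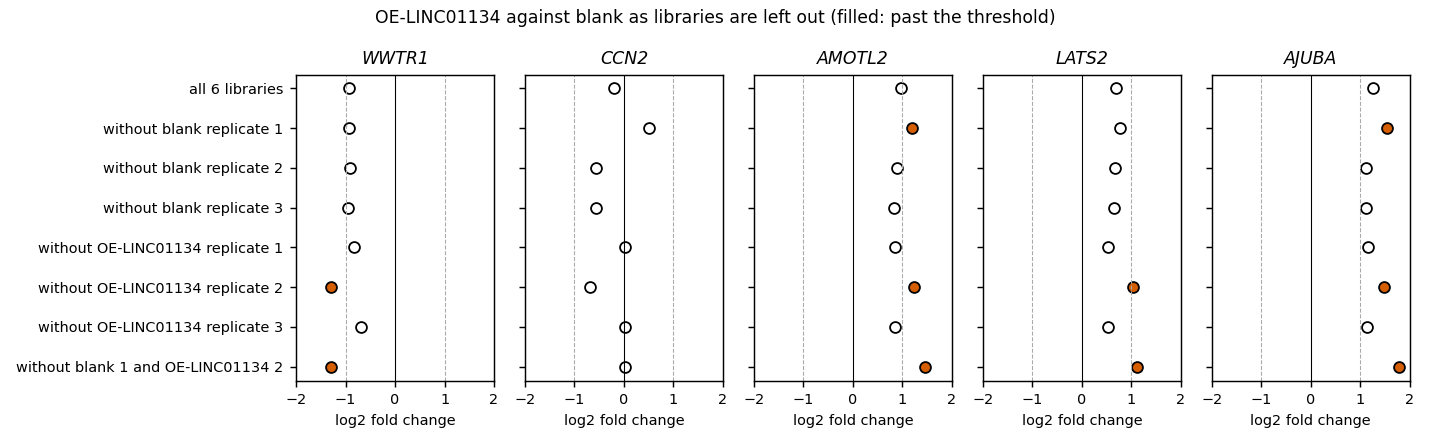
Log2 fold change (x axis) of 5 genes, OE-LINC01134 against blank, with all 6 libraries and as the libraries named on the y axis are left out. Filled points passed the threshold, as AJUBA, AMOTL2, LATS2 and WWTR1 did without OE-LINC01134 replicate 2, while CCN2 moved between -0.68 and 0.50 and did not pass. Without that replicate, 1540 of all 17538 genes tested passed, beside 149 with all 6 libraries, and the OE-LINC01134 libraries left were near-identical.

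CCN2, the classical target of YAP and TAZ that encodes connective tissue growth factor, depended more on single libraries than the other members. It had 382, 87.6 and 88.9 FPKM in the blank libraries, 53.2, 54.2 and 54.4 with siSRSF1-2, 29.5, 36.3 and 38.6 with siSRSF1-3, and 90.0, 239 and 89.6 with OE-LINC01134. Blank replicate 1 was at 4.33 times the mean of the other two and OE-LINC01134 replicate 2 at 2.66 times, while the remaining 4 libraries of these groups lay between 87.6 and 90.0 FPKM. All siRNA libraries were below all blank and OE-LINC01134 libraries, and siSRSF1-3 was wholly below siSRSF1-2. Group means were 186 ± 170 in blank, 53.9 ± 0.634 with siSRSF1-2, 34.8 ± 4.75 with siSRSF1-3 and 139.5 ± 86.2 FPKM with OE-LINC01134 (SD, n = 3).

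The log2 fold change of CCN2 against blank was -1.41 (SE 0.571, limma adjusted p = 0.120) with siSRSF1-2 and -2.05 (SE 0.569, adjusted p = 0.0949) with siSRSF1-3, and neither passed the threshold. Without blank replicate 1 these values were -0.71 and -1.35. Over the alternatives the value for siSRSF1-3 lay between -2.50 and -1.35, with adjusted p between 0.0202 and 0.289. Between the siRNAs, where blank libraries play no part, it was -0.64 (SE 0.140, limma adjusted p = 0.0759), and it lay between -1.22 and -0.53 over the alternatives. With OE-LINC01134 the value was -0.21 (SE 0.656, limma adjusted p = 0.863), 0.50 without blank replicate 1 and 0.02 without blank replicate 1 and OE-LINC01134 replicate 2.

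CCN1, the matricellular paralog of CCN2, had 169.6, 136 and 134 FPKM in the blank libraries, 101.5, 99.4 and 99.6 with siSRSF1-2, 92.9, 129 and 123 with siSRSF1-3, and 192, 113 and 193 with OE-LINC01134. Both siRNA groups lay wholly below the blank libraries. The log2 fold change of CCN1 against blank was -0.54 (SE 0.10, limma adjusted p = 0.0126) with siSRSF1-2, within 1 and so short of the threshold, and -0.36 (SE 0.237, adjusted p = 0.33) with siSRSF1-3. For siSRSF1-2 it lay between -0.60 and -0.41 over the alternatives, with adjusted p between 0.000123 and 0.810. With OE-LINC01134 it was 0.15 (SE 0.231, limma adjusted p = 0.711), and 0.40 (adjusted p = 0.0718) without replicate 2 of that group. Over the alternatives it lay between -0.036 and 0.51, with adjusted p between 0.000339 and 0.987. In OE-LINC01134 replicate 2, where CCN2 was high, CCN1 was at 0.586 times the mean of the other two, below all blank libraries.

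ANKRD1, an ankyrin repeat protein of muscle and a target of YAP and TAZ, had the highest mean level of the 10 genes. It had 227, 267 and 278 FPKM in the blank libraries, 428, 434 and 444 with siSRSF1-2, 288, 385 and 476 with siSRSF1-3, and 206, 112 and 205 with OE-LINC01134. Both siRNA groups lay wholly above and the OE-LINC01134 group wholly below the blank libraries. The log2 fold change against blank was 0.76 (SE 0.0870, limma adjusted p = 0.00334) with siSRSF1-2, a fold of 1.70, and lay between 0.67 and 0.89 over the alternatives, with adjusted p between 8.91e-05 and 0.791. It was 0.55 (SE 0.290, limma adjusted p = 0.240) with siSRSF1-3 and -0.61 (SE 0.249, adjusted p = 0.181) with OE-LINC01134. Over the alternatives the value for siSRSF1-3 lay between 0.10 and 0.74, with adjusted p between 0.126 and 0.877. Without OE-LINC01134 replicate 2, that for OE-LINC01134 was -0.32 (limma adjusted p = 0.0874), and it lay between -0.76 and -0.32 over the alternatives, with adjusted p between 0.00093 and 0.715.

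**Figure D4:**
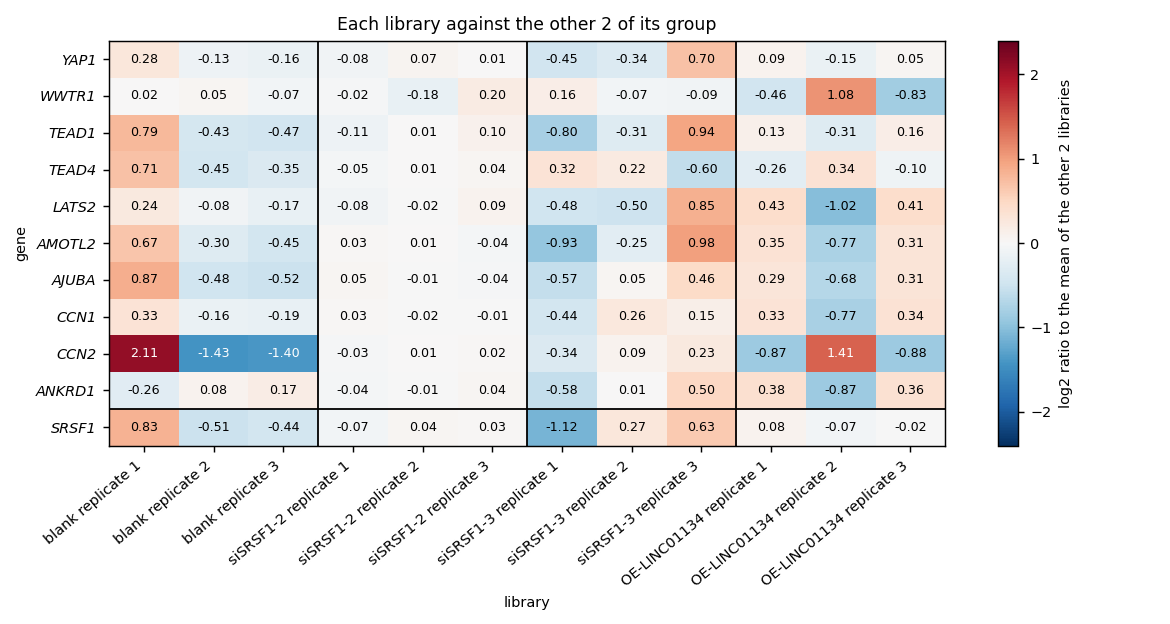
Log2 ratio (color and printed value) of each library (x axis) to the mean of the other two of its group, for the 10 genes and SRSF1 (y axis). CCN2 stands out at 2.11 in blank replicate 1 and 1.41 in OE-LINC01134 replicate 2, the siSRSF1-2 libraries lie near 0, and TEAD4 has the opposite sign to TEAD1 in the siSRSF1-3 libraries.

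In the libraries that stood apart, several members differed from the rest of their group, and few or none by over 2 times. In blank replicate 1, 9 of the 10 genes were higher than in the mean of the other two blank libraries, with ANKRD1 the exception. WWTR1 was at only 1.01 times that mean, and SRSF1 was at 1.79 times it. The median log2 ratio to that mean was 0.50 over the members and 0.03 over all genes tested. How many of all genes were higher at any ratio was not counted. Of all genes tested, 3.54% were over 2 times higher and 7.43% over 2 times lower in that library, and of the members 1 and 0. In OE-LINC01134 replicate 2, 2 members (CCN2 and WWTR1) were over 2 times higher and 1 (LATS2) over 2 times lower, beside 5.68% and 5.42% of all genes. In siSRSF1-3 replicate 3, YAP1, TEAD1, LATS2 and AMOTL2 were 1.63 to 1.99 times the mean of the other two, none over 2 times, beside 11.2% of all genes over 2 times higher and 13.1% over 2 times lower. The scaling of the deposited FPKM also differed there, since the library size it implies was 0.712 and 0.888 times the library's own reads in siSRSF1-3 replicates 1 and 2 and 0.990 to 1.09 times in the other 10 libraries.

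Paralogs of the members were set beside them. Of the TEAD factors, TEAD3 had 22.3 ± 2.79, 25.6 ± 1.14, 21.8 ± 3.82 and 18.3 ± 1.76 FPKM and TEAD2 10.8 ± 0.416, 10.2 ± 0.395, 8.04 ± 0.880 and 12.4 ± 1.06 FPKM in blank, siSRSF1-2, siSRSF1-3 and OE-LINC01134 cells (SD, n = 3). All 4 TEAD genes were thus expressed, and TEAD2 was wholly below the blank range with siSRSF1-3, at a log2 fold change of -0.43 (limma adjusted p = 0.147). LATS1, the paralog of LATS2, had 3.81 ± 0.484, 5.62 ± 0.239, 2.41 ± 1.03 and 5.43 ± 0.597 FPKM in the same order. Its log2 fold change was 0.56 (SE 0.108, limma adjusted p = 0.0146) with siSRSF1-2 and -0.71 (SE 0.306, adjusted p = 0.179) with siSRSF1-3. For LIMD1 and WTIP, the LIM proteins nearest to AJUBA, the log2 fold change with OE-LINC01134 was -0.09 (SE 0.15, limma adjusted p = 0.73) and 0.06 (SE 0.202, adjusted p = 0.876).

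**Figure D5:**
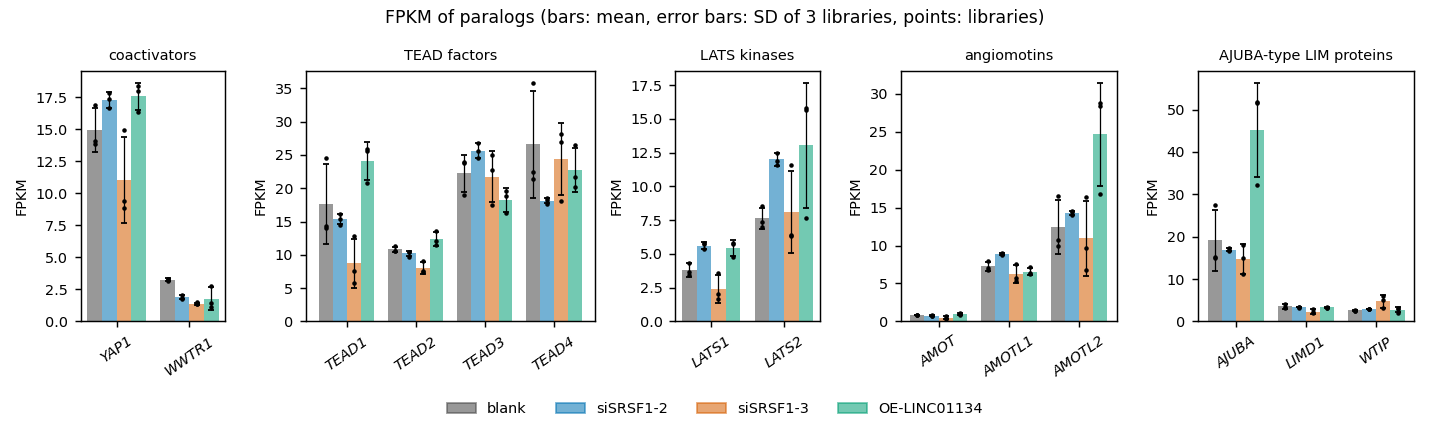
FPKM (y axis, linear from 0, a scale of its own in each panel) of paralogs by gene (x axis) and group (color), with bars at the mean, error bars at the SD (n = 3) and points for the libraries. WWTR1 was far below YAP1 in every group, and AJUBA and AMOTL2 had the highest levels of their families.

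A list of 42 other Hippo genes was examined by role, and 38 of them passed the filter on low values. With siSRSF1-2, 1 passed the threshold, with a lower level, and at any fold change 12 were higher and 5 lower at an adjusted p under 0.05, beside 14% and 12.8% of all genes. Of the 20 upstream kinases, adaptors and scaffolds, 8 were among the higher ones and 0 among the lower, namely STK4, LATS1, MOB1B, WWC1, FRMD6, TAOK1, PTPN14 and AMOTL1, with log2 fold changes between 0.29 and 0.65. All of the 20 but SAV1 (5630 bases), and so all 8, are among the longest genes, of 6414 bases or more. Over these the median of all genes tested was 0.12 with siSRSF1-2, and the part of length was not tested. With siSRSF1-3 against blank, 3 of the 20 had a positive and 17 a negative log2 fold change, beside 8653 and 8885 of all genes tested. Their median was -0.25, where that of all genes of 6414 bases or more was -0.21. Between the siRNAs, 3 of the 20 were wholly higher and 14 wholly lower with siSRSF1-3, beside 27% and 27.6% of all genes. The median of all genes of 6414 bases or more was -0.34 there, and the part of length was again not tested. With siSRSF1-2 at an adjusted p under 0.05, 2 of the 13 further target genes tested were higher (ASAP1 and AXL) and 4 lower (MYOF, CRIM1, FOXF2 and CCDC80). By the same rule with siSRSF1-2, VGLL3 and VGLL4 of the 5 TEAD partners were higher and VGLL2 was lower. With siSRSF1-3, OE-LINC01134 and between the siRNAs, 0 of the 38 passed by limma, and at an unadjusted p with a log2 fold change beyond 1 these numbers were 5, 1 and 7, beside 14.8%, 7.45% and 16.4% of all genes. The median log2 fold change of the list was 0.09 with siSRSF1-2, -0.26 with siSRSF1-3, 0.08 with OE-LINC01134 and -0.42 between the siRNAs.

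CCDC80, a secreted matrix protein, was the gene of the list that passed the threshold. It had 3.73, 1.98 and 1.97 FPKM in the blank libraries, 0.634, 0.736 and 0.595 with siSRSF1-2, 0.843, 0.791 and 0.662 with siSRSF1-3, and 2.48, 3.17 and 2.94 with OE-LINC01134. All siRNA libraries were below all others. CCDC80 fell by 1.76 on the log2 scale with siSRSF1-2 (SE 0.269, limma adjusted p = 0.00732), and its log2 fold change with siSRSF1-3 was -1.56 (SE 0.312, adjusted p = 0.0569). The smallest adjusted p of the list with siSRSF1-3 belonged to CRIM1, a transmembrane protein that binds bone morphogenetic proteins (-1.73, limma adjusted p = 0.0505), CCDC80 and MYOF, a membrane repair protein (-2.03, adjusted p = 0.0577). With OE-LINC01134 they belonged to MYOF (-0.75, limma adjusted p = 0.0682), the tissue factor gene F3 (-1.47, adjusted p = 0.0817) and the kinase gene MAP4K4 (-0.44, adjusted p = 0.0885). Between the siRNAs, MAP4K4 (-0.61, limma adjusted p = 0.0749), CRIM1 (-0.92, adjusted p = 0.0759), and TAOK1 (-1.40) and LATS1 (-1.26), both at an adjusted p of 0.0764, came first.

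The genes whose pattern over the 12 libraries was most like that of a target gene were found by the root mean square difference of log2(FPKM + 0.1), each gene centred on its own mean. For CCN2 they were LIM and calponin homology domains 1 (0.215), teneurin transmembrane protein 2 (0.255) and the coagulation factor II thrombin receptor (0.290), where the median over all genes tested was 1.13. For ANKRD1 they were APCDD1L divergent transcript (0.130), SH2 domain containing 5 (0.188) and nucleosome assembly protein 1 like 5 (0.222), with a median of 0.753. For CCN1 they were the uncharacterized LOC389831 (0.104), transmembrane protein 19 (0.145) and HBS1 like translational GTPase (0.151), with a median of 0.565. None of the target genes was among the 3 genes most like another. CCN1 varied over a narrower range than CCN2, from 92.9 to 193 against 29.5 to 382 FPKM, and genes that vary little lie near each other by this measure.

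The positions of the members, as deposited, were 11:102110461-102233423 for YAP1, 3:149517235-149736714 for WWTR1, 11:12674591-12944483 for TEAD1, 12:2959330-3040673 for TEAD4, 13:20973032-21061547 for LATS2, 3:134355874-134375479 for AMOTL2, 14:22971174-22982642 for AJUBA, 1:85580761-85583962 for CCN1, 6:131948176-131951373 for CCN2 and 10:90912096-90921276 for ANKRD1. The submitters' processing notes name a mouse build only, which conflicts with the human genes of the table, and a human build is not given in the sources used here. All 10 are protein-coding. Genes listed as overlapping a member held few reads, 31 or fewer in any library, and whether strand was used in counting is not given in the sources used here.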

How the data were processed

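RNA of 12 U2OS libraries was sequenced in 4 groups of 3. FPKM (fragments per kilobase, scaled for library size) of 58735 genes were deposited by the authors, with gene lengths and positions but no symbols. Aligner, counting program and human build are not given in the sources used here. Mouse is the organism of the labels and of the genome build in the submitters' processing notes, but the rows are human genes. Library kits differ between the labels and the supplementary methods, and the methods name HOS as the transfected line where the labels give U2OS. Columns of the siRNA libraries carry ASF, an older name of SRSF1, and were matched to the siSRSF1 titles.

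Deposited FPKM times gene length were whole multiples of 1 read for 100% of values (tolerance 0.001), which gave 26237763 to 32954539 reads per library. Pairs of groups were compared by limma 3.58.1 (R 4.3.3, lmFit and eBayes with trend) on log2(FPKM + 0.1), for the 17538 genes whose mean FPKM reached 0.5. P-values were Benjamini-Hochberg adjusted over all of these, and the threshold was 0.05 for the adjusted p and 1 for the size of the log2 fold change. Fold changes are on the log2(FPKM + 0.1) scale, which understates changes of low genes. Exact two-sided permutation tests used scipy 1.17.1.

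The members, the list of other Hippo genes, the markers and the rule for named genes were chosen with earlier results of these data known. That rule names all 10 members, any other Hippo gene past the threshold, otherwise the 3 with the smallest adjusted p in a comparison, and the 3 genes most like CCN1, CCN2 and ANKRD1. All 71 symbols looked up were matched by full name. On simulated data with 200 of 17538 genes changed by 2 on the log2 scale in either direction, the fit recovered 191 with siSRSF1-2 against blank, 181 with siSRSF1-3 against blank, 192 with OE-LINC01134 against blank and 191 between the siRNAs, with 12, 11, 8 and 5 false calls. The simulation gave all libraries the same kind of spread and left genes of low read count unchanged. Real groups mixed near-identical and distant libraries, so these numbers check the code and do not carry over to the real calls or to smaller changes.

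The alternatives were a pseudocount of 1, no filter, other scalings of FPKM, a single fit over the 4 groups, a replicate block, voom on the recovered reads, siSRSF1-2 libraries averaged, and each library left out. Near-identical libraries averaged, libraries that stand apart left out together, a length trend removed and no minimum fold change were chosen after seeing the data. No sequence is shown, since no human reference was used here.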

Additional observations from a re-analysis of the deposited data

How the results depend on the processing

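Of 670 values of the 10 genes under an alternative, 619 kept their direction and side of the threshold, 19 came past it (4 because the fold change limit was removed, with the fold changes as before, and 15 under other alternatives), 11 (all of WWTR1 with siSRSF1-3) fell short of it and 21 changed sign. The causes were not tested. All-gene counts past the threshold were 868 with siSRSF1-2, 221 with siSRSF1-3, 149 with OE-LINC01134 and 15 between the siRNAs. In that order, 1 fit over the 4 groups gave 314, 2422, 689 and 2731, with 0, 3, 1 and 0 members and 1, 5, 1 and 7 other Hippo genes. Near-identical libraries averaged gave 0, 0, 1 and 0 genes, with 0 members in siSRSF1-3 and 0 other Hippo genes in siSRSF1-2, and averaging siSRSF1-2 alone gave 0 genes against blank, 0 other Hippo genes, and 0 between the siRNAs. Where siSRSF1-2 was 1 averaged sample its spread was taken from the other group. Calls lost there can come from fewer samples or from an unstable difference, and the fit cannot tell these apart. If the siSRSF1-2 libraries are technical repeats, which the labels do not say, 1 averaged sample is the right unit. With siSRSF1-2 averaged, the median log2 fold change of the members against blank was -0.13, beside -0.14. Other alternatives moved this median further. It was 0.14 without blank replicate 1 and -0.0034 at the same sum, where that of all genes tested was 0.02 and 0.15. For siSRSF1-3 the median of the members was -0.15 without blank replicate 1 and -0.79 at the same sum, where that of all genes was -0.01 and -0.43. No filter gave 116, 81 and 109 genes in the last 3, and voom 587, 348 and 110, with 3 other Hippo genes for siSRSF1-3. A pseudocount of 1 gave 379 genes for siSRSF1-2 and 84 between the siRNAs, with 0 members and 2 other Hippo genes for siSRSF1-3. Own read totals gave 69 genes and 0 members for siSRSF1-3, the same sum 1 and 0 (8 genes between the siRNAs), and length trend removal 341 genes, 0 members and 1 other Hippo gene (68 genes between the siRNAs). No minimum fold change gave 4702 genes, 4 members and 17 other Hippo genes for siSRSF1-2. Leaving out both blank replicate 1 and OE-LINC01134 replicate 2 gave 2446 genes, 4 members and 3 other Hippo genes.

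Same-numbered replicates did not deviate together (correlations of deviations between -0.0815 and 0.0420), so the numbers gave no sign of pairing. Pairing is not excluded, since a shared deviation could hardly show among libraries that differ by little more than counting noise. With the replicate block the counts were 681 for siSRSF1-2, 0 for siSRSF1-3 with 0 members, 4 for OE-LINC01134 and 0 between the siRNAs. WWTR1 with siSRSF1-3 then had a limma adjusted p of 0.145.

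Leaving out each replicate in turn gave 534 to 1188 genes for siSRSF1-2, 0 to 4184 for siSRSF1-3 (4184 without siSRSF1-3 replicate 3), 1 to 1540 for OE-LINC01134 (1540 without its replicate 2) and 0 to 5358 between the siRNAs (5358 without siSRSF1-3 replicate 3). Members ranged from 0 to 0, 0 to 2, 0 to 4 and 0 to 1, and other Hippo genes from 1 to 2, 0 to 9, 0 to 2 and 0 to 11.

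The values that changed sign were as follows. With siSRSF1-2, AJUBA turned to 0.014 at the same sum. Leaving out a library, it ranged from -0.27 to 0.17 (without blank replicate 1) and TEAD1 from -0.29 to 0.11 (without blank replicate 1). With siSRSF1-3, LATS2 turned to -0.23 at own totals, -0.41 at the same sum and -0.010 with near-identical libraries averaged, and ranged from -0.25 (without siSRSF1-3 replicate 3) through -0.027 (without blank replicate 3) to 0.18 as libraries were left out. TEAD4 ranged from -0.24 through 0.091 (without siSRSF1-3 replicate 3) to 0.13 (without blank replicate 1), and AMOTL2 from -0.57 to 0.054 (without siSRSF1-3 replicate 1). With OE-LINC01134, CCN1 turned to -0.036 with near-identical libraries averaged and CCN2 to 0.025 without both libraries that stand apart. TEAD4 ranged from -0.33 to 0.045 (without blank replicate 1), and CCN2 from -0.68 (without OE-LINC01134 replicate 2) through 0.024 and 0.028 (without its replicate 1 or 3) to 0.50 (without blank replicate 1). Between the siRNAs, CCN1 turned from 0.18 to -0.12 at own totals, -0.39 at the same sum and -0.084 without the length trend, and TEAD4 from 0.40 to -0.18 at the same sum.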
